A study of Mus musculus with 6 samples.

Results

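Levels of 10 imprinted growth genes, of 33696 genes counted, were followed in mouse Achilles tendon cells before and after tenotomy by single-cell RNA-seq. The genes are H19, Igf2, Dlk1, Meg3, Mest, Peg3, Plagl1, Grb10, Cdkn1c and Ndn, and all of them had UMIs (unique molecular identifiers, 1 per captured transcript) in all 6 libraries. They were named in advance because earlier values from these same libraries showed several of them higher after injury, so their changes over uninjured tendon are given as a description, without a test. All mice carried Gli1-CreERT2, a tamoxifen-inducible Cre driven by the Gli1 locus, and the Ai9 reporter, whose tdTomato stays on in cells that expressed Gli1 at labelling and in their descendants. Sorted reporter-positive (Gli1+) and reporter-negative (Gli1-) cells came from uninjured tendons, from tendons 7 days post injury (dpi) and from tendons at 21 dpi, with 8 mice pooled per time point, 24 mice in all, and 1 library for each sort at each time. The ages of the mice were not given in the sources used here, and no cell can be traced to a mouse. Uninjured tendon is the only control, and sham surgery was not analysed here.

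Genomic imprinting silences 1 parental copy of a gene, so that only the maternal or the paternal copy is transcribed. Many imprinted genes are abundant in fetal and newborn tissue, regulate growth and fall after birth. H19 is a maternally expressed long noncoding RNA that carries miR-675, and its neighbour Igf2 encodes a paternally expressed growth factor that signals through the IGF1 receptor. Dlk1, a paternally expressed transmembrane inhibitor of adipogenesis, and Meg3, a maternally expressed long noncoding RNA, form a second pair. Mest encodes a hydrolase-like membrane protein, Peg3 and Plagl1 encode zinc finger proteins, and Plagl1 is known for binding regulatory DNA of other imprinted genes. Grb10 is an adaptor that restrains insulin and IGF receptor signaling, Cdkn1c encodes the cyclin-dependent kinase inhibitor p57Kip2, and Ndn encodes Necdin, a protein that restrains proliferation.

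Of the 10 genes, 5 lie near another member and 5 lie alone. In GENCODE vM21 on GRCm38, H19 lies at chr7:142575529-142578143 and Igf2 at chr7:142650766-142666816, both on the minus strand and 72622 bases apart, with Cdkn1c further along the chromosome (chr7:143458339-143461050). Dlk1 (chr12:109452823-109463336) and Meg3 (chr12:109541001-109571726) lie on the plus strand, 77664 bases apart. Mest overlaps Copg2 on the opposite strand, and Igf2 overlaps Igf2os on the opposite strand and Gm49394 on its own strand. Whether counting used strand, and how it treated overlaps on the same strand, is not given in the sources used here. UMIs of such overlapping genes, Igf2 included, may therefore be shared or left out. H19, Mest and Igf2, the members furthest above uninjured at 7 dpi, each host a miRNA, and those of H19 and Mest, which had far more UMIs than Igf2, are shown here with the seed (bases 2 to 8) in capitals. The mature sequences are from RefSeq on GRCm38.p6, and no seed is shared among them. The miR-675 arms lie in an exon of H19 on the minus strand, at chr7:142577112-142577133 (5p) and chr7:142577078-142577099 (3p). The miR-335 arms lie in an intron of Mest on the plus strand, at chr6:30741314-30741336 (5p) and chr6:30741354-30741375 (3p). Counts of 3' transcript ends do not measure mature miRNAs, so the values below concern the host transcripts only.
miR-675-5p: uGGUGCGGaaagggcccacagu
miR-675-3p: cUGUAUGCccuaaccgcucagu
miR-335-5p: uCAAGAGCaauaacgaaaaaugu
miR-335-3p: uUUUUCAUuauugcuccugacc

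Start-site windows were given for 8 of the 10 members, in 15 windows that run from 250 bases before to 50 bases after a RefSeq start. They were read because Plagl1 itself is a member and encodes a DNA-binding protein. The PLAGL1 core letters GGGGCCCC (the same on both strands) occurred in 1 of these 15 windows, that of Peg3, and in 354 of 32851 promoter windows of the genome (1.08%). The TATA box letters TATAAA, or TTTATA on the other strand, occurred in the window of Meg3, where the matches overlap, and in 13.6% of all windows, and this motif was searched after the sequences had been seen. The 250 bases before the start are shown with the motif in capitals, for Peg3 (chr7:6730420-6730669, minus strand) and for Meg3 (chr12:109540746-109540995, plus strand). The match begins 201 bases before the start in Peg3 and TATAAA begins 25 bases before it in Meg3. Such a match is a description of letters and was not tied to any level below.
Peg3: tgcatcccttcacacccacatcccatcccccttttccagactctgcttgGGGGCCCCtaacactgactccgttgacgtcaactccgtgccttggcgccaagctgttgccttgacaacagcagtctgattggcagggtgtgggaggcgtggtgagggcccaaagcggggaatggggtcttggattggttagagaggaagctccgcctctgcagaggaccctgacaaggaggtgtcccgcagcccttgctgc
Meg3: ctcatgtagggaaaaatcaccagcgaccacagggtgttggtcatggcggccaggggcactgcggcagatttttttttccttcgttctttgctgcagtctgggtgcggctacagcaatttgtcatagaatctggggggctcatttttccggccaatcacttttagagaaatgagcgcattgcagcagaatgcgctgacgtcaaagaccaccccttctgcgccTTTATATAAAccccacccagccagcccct

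The libraries held 7057, 9250 and 9780 kept Gli1+ cells (uninjured, 7 dpi, 21 dpi) and 10882, 9931 and 10867 kept Gli1- cells, with 51588224 to 104306033 UMIs per library and medians of 4223.5 to 9527 UMIs per cell. Several libraries stood apart in make-up. Immune cells were 54.5% of the Gli1+ uninjured library, where Ptprc stood at 741 CPM (UMIs per 1000000 UMIs) against at most 0.465 CPM elsewhere. Epidermal cells were 19.8% of the Gli1+ 7 dpi library, and 98.9% of all its cells had a UMI of the keratin gene Krt14. The Gli1 transcript did not separate the sorts, at 6.61, 2.16 and 4.26 CPM in the Gli1+ sort, against 7.68, 2.52 and 4.10 CPM in the Gli1- sort. Sex differed with time point: cells called female were 69.0%, 0.0108% and 92.7% (Gli1+) and 0%, 0.0101% and 90.5% (Gli1-) of cells, although the labels give equal numbers of the sexes. Injury stage and sex of the cells therefore cannot be told apart between 7 and 21 dpi nor between uninjured and 21 dpi in the Gli1- sort, and the uninjured sorts differ in sex, so that they are also set beside each other within male cells. Because of the make-up, levels are given mainly in cells with at least 1 UMI of Pdgfra, a receptor of connective tissue fibroblasts, which numbered 1807, 4719 and 5223 (Gli1+) and 5078, 6547 and 5492 (Gli1-). All intervals are exact 95% intervals for counting error only. With 1 library per condition the spread between animals is unknown, so no p-value is given and no difference has a replicate check. Sums over a library do not tell more cells of a type from more RNA per cell. Libraries shared 27 to 75 cell barcodes per pair, at most 0.534% of the smaller library.

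In Pdgfra cells of both sorts, H19, Igf2, Mest and Plagl1 were the members furthest above uninjured at 7 dpi. Plagl1 was higher by less within Gli1- clusters 3, 5 and 6, given with the cell types. The members were chosen with such changes in these libraries known, so these ratios are a description only. Ndn lay lower after injury in summed Pdgfra cells of both sorts. The summed level of Dlk1 in these cells was not higher at 7 dpi beyond counting error, with few uninjured Gli1+ cells holding most of its UMIs. The Dlk1 sum lay far lower at 21 dpi, though not within the single Gli1- clusters given with the cell types, and Gli1+ clusters went both ways. Meg3, Peg3, Grb10 and Cdkn1c lay between these patterns.

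**Figure D1:**
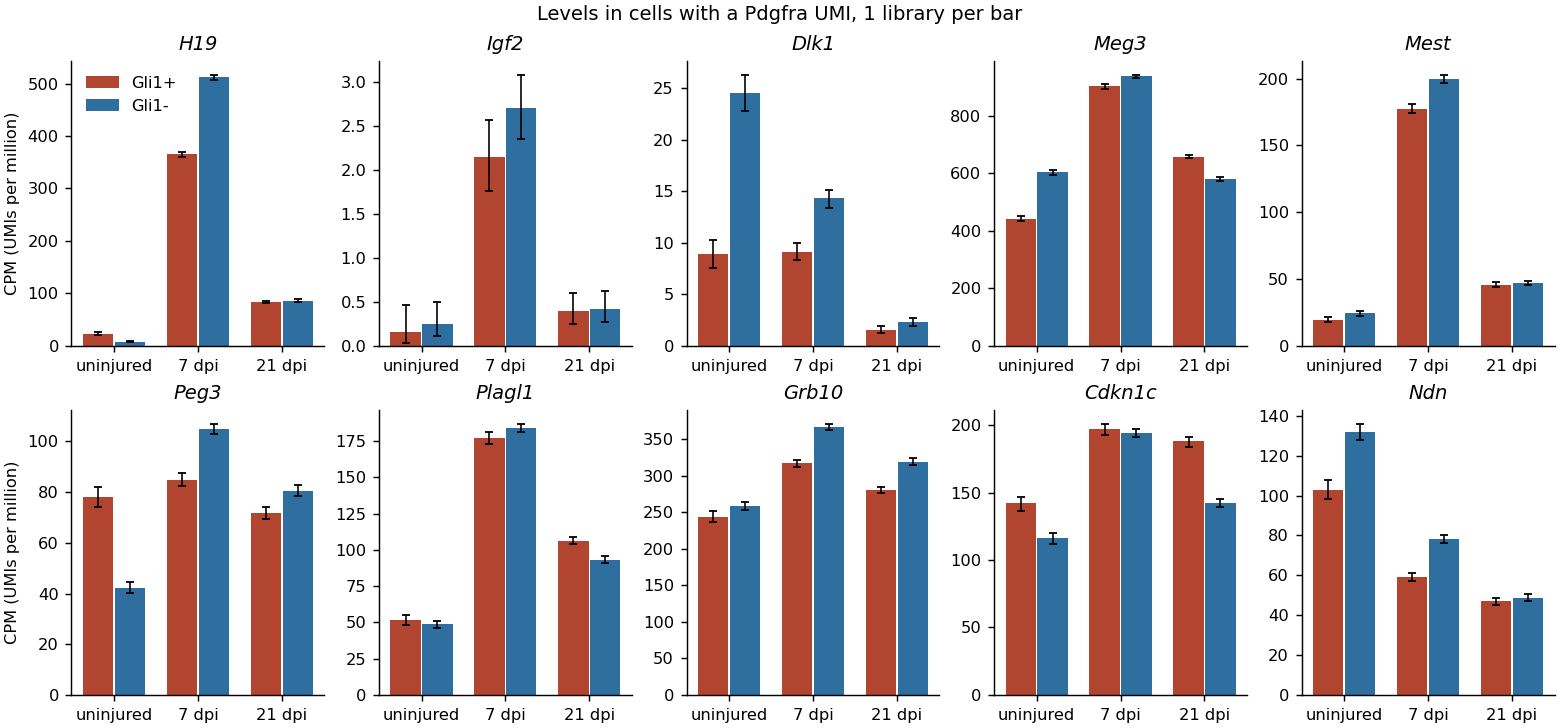
Bars give the level of each member in cells with a Pdgfra UMI, as CPM (linear axes from 0, 1 scale per gene), in the Gli1+ (red) and Gli1- (blue) libraries, with exact 95% Poisson intervals and 1 library per bar. H19 reached 365 and 512 CPM at 7 dpi against at most 86.0 CPM in the other 4 libraries, whereas Ndn was highest in the uninjured libraries, at 103 and 132 CPM.

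H19 had the widest range. Its level in Pdgfra cells was 23.2 (95% interval 21.1 to 25.5), 365 (360 to 370.3) and 84.0 (81.6 to 86.4) CPM in the Gli1+ sort before injury, then 7 and 21 days later. The Gli1- sort had 8.18 (7.21 to 9.24), 512 (507 to 517) and 86.0 (83.6 to 88.5) CPM. The 7 dpi libraries were highest in both sorts, the 21 dpi libraries came next, with intervals that overlapped each other, and uninjured tendon was lowest. The log2 ratio of 7 dpi over uninjured was 3.98 (3.84 to 4.12) in the Gli1+ sort, against 5.97 (5.79 to 6.15) in the Gli1- sort, and that of 21 dpi over uninjured was 1.86 and 3.39. Summed over all kept cells, H19 at 7 dpi was 34.5-fold (Gli1+) and 64.9-fold (Gli1-) above uninjured. The difference between the sorts came with their uninjured libraries: Gli1+ over Gli1- was 1.5 (1.28 to 1.73) on the log2 scale before injury and -0.49 at 7 dpi. Within male Pdgfra cells the uninjured log2 ratio was 0.50 (0.00 to 0.97).

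Few cells carried H19 before injury. In uninjured mesenchymal cells, 57 of 2455 Gli1+ cells and 107 of 5818 Gli1- cells had an H19 UMI, and the 10 highest cells held 77.7% and 51.8% of the H19 UMIs. Without those 10 cells the uninjured level went from 19.8 to 4.46 CPM (Gli1+) and from 10.4 to 5.02 CPM (Gli1-). At 7 dpi the 10 highest cells held only 2.25% and 1.59% of the H19 UMIs, and 4127 of 6986 Gli1+ and 5484 of 8001 Gli1- mesenchymal cells had at least 1. The uninjured gap between the sorts in mesenchymal cells thus rested on a handful of Gli1+ cells. The wider gap in Pdgfra cells was not recomputed without such cells. At 7 dpi the highest 10% of mesenchymal cells held 55.9% (Gli1+) and 50.1% (Gli1-) of the H19 UMIs. Without thinning, 33.2% of Gli1+ epidermal cells at 7 dpi, used below as a background, also had an H19 UMI.

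Igf2, the growth factor next to H19, followed the same order of time points at far lower levels. UMIs of 3' ends give 1 tag per transcript whatever its length, so levels of different genes are set beside each other as transcripts. The Igf2 level in Pdgfra cells was 0.159, 2.14 and 0.398 CPM in the Gli1+ sort, against 0.252, 2.70 and 0.421 CPM in the Gli1- sort (uninjured, 7 dpi, 21 dpi). Only 3 Igf2 UMIs stood behind the Gli1+ uninjured value. The log2 ratio at 7 dpi was 3.75 (2.16 to 6.05) in the Gli1+ sort, against 3.42 (2.42 to 4.65) in the Gli1- sort, and at 21 dpi 1.32 (-0.41 to 3.70) and 0.74, so a change at 21 dpi was not detectable at this depth in either sort.

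Mest and Plagl1 followed the same course. Mest stood at 19.5, 177 and 45.7 CPM in the Gli1+ sort, against 24.4, 199.6 and 47.1 CPM in the Gli1- sort (Pdgfra cells), so that both 7 dpi libraries lay far above the other 4. Its log2 ratio over uninjured was 3.18 (3.03 to 3.34) and 3.03 (2.93 to 3.14) at 7 dpi, and 1.23 and 0.95 at 21 dpi. Plagl1, the zinc finger gene, stood at 51.7, 177 and 106 CPM in the Gli1+ sort, against 48.7, 184 and 93.2 CPM in the Gli1- sort. It kept more of its level at 21 dpi than H19 or Mest: its log2 ratio was 1.78 (1.68 to 1.87) and 1.92 (1.85 to 2.0) at 7 dpi and 1.04 and 0.94 at 21 dpi.

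Meg3 was the most abundant of the 10 genes in each library, and its change was smaller. It stood at 441, 901 and 657 CPM in the Gli1+ sort, against 604, 936 and 579 CPM in the Gli1- sort (Pdgfra cells). At 7 dpi its log2 ratio was 1.03 in the Gli1+ sort, against 0.63 in the Gli1- sort. By 21 dpi Meg3 was still higher in Gli1+ cells (0.57) and its sum in Gli1- cells was at the uninjured level (-0.06, or 0.12 with TMM scaling, which turns the sign). Its neighbour Dlk1 took another course. Dlk1 stood at 8.86, 9.12 and 1.55 CPM in the Gli1+ sort, against 24.5, 14.3 and 2.30 CPM in the Gli1- sort (Pdgfra cells), with the lowest levels in both 21 dpi libraries. The log2 ratio of Dlk1 at 7 dpi was 0.04 (-0.22 to 0.30) and -0.78, and at 21 dpi -2.51 and -3.42. As with H19, few Gli1+ cells held Dlk1 before injury: in mesenchymal cells the 10 highest cells held 80.2% of its UMIs in the uninjured library and 28.6% at 7 dpi. Without those cells the Dlk1 level was 1.46, 6.24 and 0.706 CPM in the Gli1+ sort, so that the 7 dpi library was then the highest, against 19.5, 11.7 and 1.23 CPM in the Gli1- sort. The clusters that make up these sums differ by time, and levels within clusters are given with the cell types.

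Peg3 differed between the sorts before injury. Its level in Pdgfra cells was 78.0, 84.9 and 71.8 CPM in the Gli1+ sort, against 42.3, 105 and 80.6 CPM in the Gli1- sort, so that the Gli1- uninjured library alone was low. The log2 ratio at 7 dpi was 0.12 in the Gli1+ sort, against 1.31 (1.23 to 1.40) in the Gli1- sort, beside an uninjured Gli1+ over Gli1- ratio of 0.88 (0.71 within male cells). At 21 dpi the Peg3 ratios were -0.12 (0.33 with TMM scaling, which turns the sign) and 0.93. Among the growth restrainers, Grb10 stood at 244, 317 and 281 CPM (Gli1+) and at 259, 367 and 319 CPM (Gli1-), a log2 ratio at 7 dpi of 0.38 and 0.50. Cdkn1c stood at 142, 197 and 188 CPM in the Gli1+ sort, against 116, 194 and 142 CPM in the Gli1- sort, a log2 ratio of 0.47 and 0.74. Both were higher at 7 dpi by less than 2-fold in each sort. Ndn went the other way, at 103, 59.2 and 46.9 CPM in the Gli1+ sort, against 132, 78.1 and 48.7 CPM in the Gli1- sort, with log2 ratios of -0.80 and -0.76 at 7 dpi and -1.13 and -1.44 at 21 dpi. Within single mesenchymal clusters of the Gli1- sort, given with the cell types, Ndn at 7 dpi was lower in cluster 6 and not in clusters 3 and 5.

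Counts of members past 2-fold depended on which cells were summed. In all kept cells at 7 dpi, 8 of 10 members were at least 2-fold above uninjured in Gli1+ cells, where 14.1% of the genes with at least 50 UMIs in the libraries compared were, and 5 of 10 in Gli1- cells, where 12.1% were. In Pdgfra cells the counts were 5 of 10 in both sorts, beside 13.4% and 14.0% of genes. Since the members were chosen on these changes, the counts are given as they are and nothing is read from the gap. In the Gli1+ sort Grb10, Cdkn1c and Dlk1 passed 2-fold only with all kept cells summed. The uninjured Gli1+ library is the one with 54.5% immune cells, in which these genes were low (Grb10 5.24, Cdkn1c 9.23 and Dlk1 0.762 CPM in immune cells). Whether this share accounts for the difference in counts was not tested. The median log2 ratio of the members at 7 dpi was 1.67 and 1.20 in all kept cells and 0.75 and 1.03 in Pdgfra cells, where the median of all genes was -0.24, -0.22, -0.17 and -0.08. TMM scaling rescales all genes of a library by 1 factor and does not remove differences in cell types. It shifted log2 ratios over uninjured by 0.28 and 0.23 at 7 dpi in all kept cells.

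At 21 dpi, 7 of 10 members in Gli1+ (10.6% of genes) and 4 of 10 in Gli1- (10.9% of genes) kept cells were at least 2-fold above uninjured, and Igf2 is counted among the 7 with 42 UMIs in the libraries compared, under the minimum of 50, so that 6 of 9 members past the minimum were. In Pdgfra cells 4 of 10 members in Gli1+ (7.98% of genes) and 1 of 10 in Gli1- (12.4% of genes) passed, and Igf2, under the minimum in both sorts, is 1 of those 4, leaving 3 of 9 and 1 of 9. From 7 to 21 dpi the same 4 members, H19, Igf2, Dlk1 and Mest, were at least 2-fold lower in Pdgfra cells of both sorts, beside 10.2% of genes in the Gli1+ sort, against 6.17% in the Gli1- sort. Their log2 ratios of 21 over 7 dpi were -2.12, -2.43, -2.55 and -1.95 in the Gli1+ sort, against -2.57, -2.68, -2.63 and -2.08 in the Gli1- sort. In all kept cells 4 members (9.07% of genes) and 5 members (5.69% of genes) were lower by that much. The 6 other members were also lower at 21 dpi in Pdgfra cells, with log2 ratios of -0.98 to -0.07, of which Cdkn1c in the Gli1+ sort (-0.07) turns to 0.08 with TMM scaling.

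**Figure D2:**
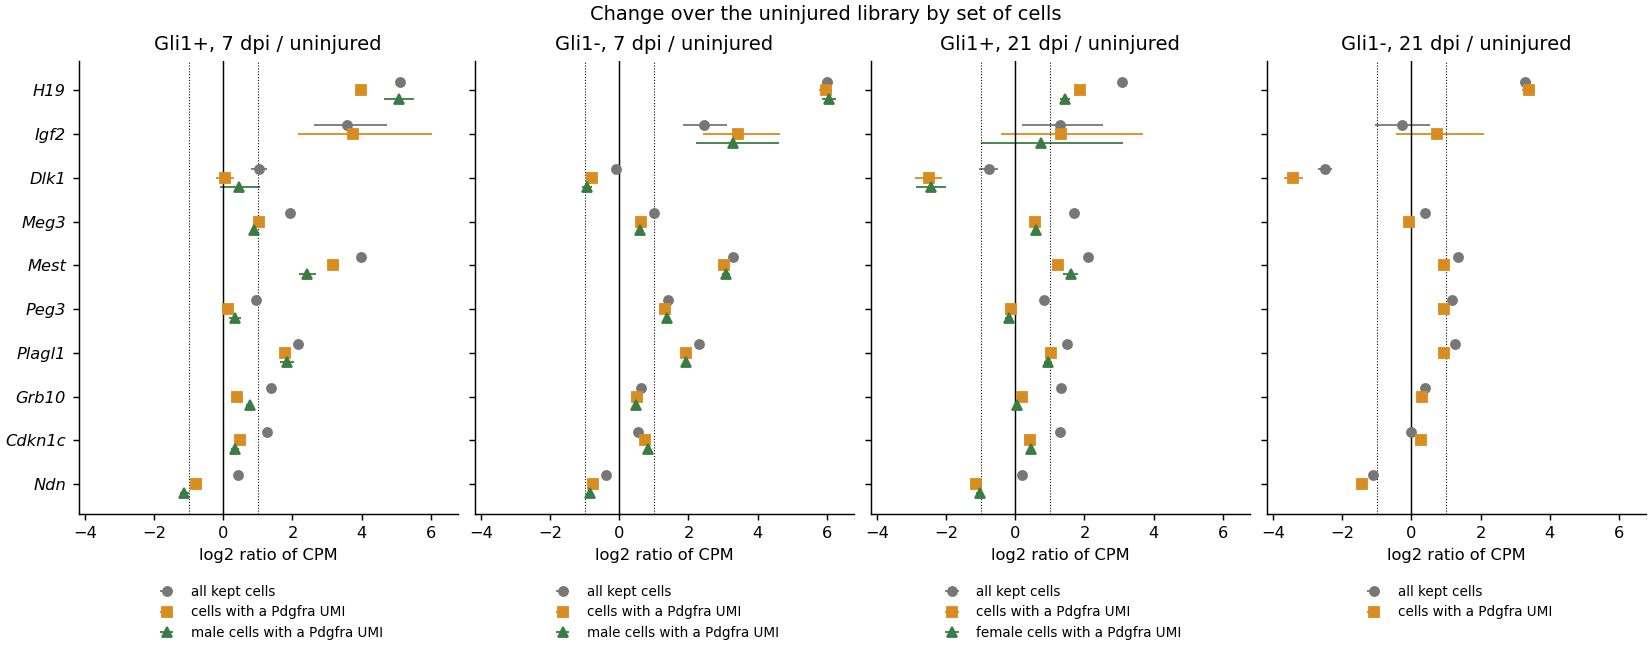
Points give the log2 ratio of CPM over the uninjured library of the same sort for each member, in all kept cells (grey circles), cells with a Pdgfra UMI (orange squares) and Pdgfra cells of 1 sex (green triangles), with exact 95% counting intervals as lines. Dotted lines mark 2-fold. H19, Igf2, Mest and Plagl1 lie right of the 2-fold line at 7 dpi in each set of cells with a ratio, while Ndn lies left of 0 in Pdgfra cells in the 4 panels.

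Between the sorts at 7 dpi, none of the 10 members was 2-fold apart in Pdgfra cells. Only 6.15% of all genes were, so nothing about the members is read from this count. The log2 ratio of Gli1+ over Gli1- ran from -0.64 for Dlk1 to 0.02 for Cdkn1c. Of the 10 members, 9 were lower in Gli1+ cells, where 55.8% of all genes were higher, with H19 at -0.49 and Ndn at -0.40, and Cdkn1c joins them with TMM scaling (-0.03). In all kept cells Dlk1 alone was past 2-fold, at -1.05, beside 9.93% of genes. The difference in response between the sorts was not tested, since each has 1 library per time point.

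Within cells of 1 sex, H19, Mest and Plagl1 were again higher after injury than uninjured, where this could be compared. No sex had enough cells at every time point, so 7 and 21 dpi could not be compared within 1 sex. In uninjured male Pdgfra cells Mest stood at 33.8 CPM (Gli1+) and 24.1 CPM (Gli1-) and Plagl1 at 49.9 and 51.3 CPM. Both orders of the sorts are the reverse of those in all Pdgfra cells. Among male Pdgfra cells, H19 stood at 11.0 CPM uninjured (409 cells) and 371 CPM at 7 dpi (3604 cells) in Gli1+ and at 7.82 (3603 cells) and 523 CPM (5046 cells) in Gli1-, log2 ratios of 5.07 (4.65 to 5.52) and 6.06. The Gli1+ value exceeded that of all Pdgfra cells (3.98). Between the sexes of uninjured Gli1+ Pdgfra cells, the log2 ratio of female over male was 1.5 for H19 and -1.14 for Mest. Without thinning only 2.55% of uninjured Gli1+ Pdgfra cells had an H19 UMI, so that H19 ratio rests on few cells. Male log2 ratios of Mest were 2.42 and 3.09, of Plagl1 1.85 and 1.92, and of Ndn -1.13 and -0.84. Igf2 had 0 UMIs in the 409 male uninjured Gli1+ cells, and its level at 7 dpi was at least 3.17-fold higher, against a floor of 3 UMIs over those cells. Among female Gli1+ Pdgfra cells at 21 dpi over uninjured, H19 was higher by 1.43, Mest by 1.60 and Plagl1 by 0.93, and Dlk1 and Ndn were at -2.43 and -1.03.

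Most of each member's UMIs at 7 dpi were in mesenchymal cells, 94.4% to 96.5% by member in the Gli1+ sort, against 85.4% to 98.5% in the Gli1- sort. Mesenchymal cells also held most UMIs of all genes, 69399527 of 88424286 (Gli1+) and 95746983 of 104306033 (Gli1-). The Gli1- range of the members lies on both sides of that share. Tenocyte, tendon stem cell, and chondrocyte or bone cells below are clusters of this mesenchymal class, named from markers. The tenocyte and tendon stem cell names depended on the clustering. At a lower resolution, 897 Gli1+ 7 dpi cells fell in a cluster named skeletal muscle, while clusters named tenocyte held 28 and 6. A cluster named tendon stem cell then held 5449 Gli1- and 1374 Gli1+ uninjured cells, against 741 and 404 here. With fewer components, a tenocyte cluster held 857 Gli1+ 7 dpi cells. Levels under these other names are not given here. At 7 dpi other mesenchymal cells carried 393 and 537 CPM of H19 (Gli1+, Gli1-), against 91.2 and 214 CPM in tenocytes and 213 CPM in Gli1- tendon stem cells. The tenocytes came from different clusters at each time: mostly cluster 10 in uninjured tendon, cluster 18 in Gli1+ cells and clusters 10 and 4 in Gli1- cells at 7 dpi, and cluster 4 at 21 dpi. The log2 ratio of 7 dpi over uninjured was 3.46 and 5.82 for H19 in other mesenchymal cells and 3.99 and 4.23 in tenocytes (Gli1+, Gli1-), and 2.75 and 2.99, and 2.67 and 2.17, for Mest. Other mesenchymal cells were mostly clusters 3 and 5 in uninjured tendon, cluster 1 (Gli1+) or 2 (Gli1-) at 7 dpi and clusters 7 and 12 at 21 dpi. H19 is among the leading genes of clusters 1 and 2. The members were left out of the genes used for clustering, but these clusters are nearly all 7 dpi cells. Their leading genes therefore restate the 7 dpi levels on which the members were chosen. Of 5256 cells in cluster 1, 5231 came from the Gli1+ 7 dpi library, and of 5180 in cluster 2, 4770 from the Gli1- 7 dpi library. Within mesenchymal cells, Krt1, Lgals7, Krt14 and Krt10 led cluster 1. Clusters 3 and 5 held at least 50 cells of the Gli1- sort at each time. Within cluster 3 of that sort H19 stood at 8.85, 127 and 28.4 CPM, Mest at 15.6, 86.3 and 45.8 CPM and Plagl1 at 30.7, 75.6 and 66.8 CPM, higher at 7 dpi as in the sum but by less. The H19 and Mest levels of these clusters are set beside those of other types with free RNA below. Cluster 5 held 84 and 136 cells after injury, and H19 stood there at 7.51, 122 and 15.9 CPM, Mest at 33.4, 116 and 56.8 CPM and Plagl1 at 55.5, 85.1 (57.4 to 121) and 150.1 CPM, so that Plagl1 was below 2-fold at 7 dpi and highest at 21 dpi. In cluster 6, the tendon stem cells, Plagl1 stood at 57.5, 114 and 98.1 CPM. Dlk1 had 5.19, 9.67 and 8.00 CPM (cluster 3), 40.4, 28.4 (13.6 to 52.2) and 40.9 CPM (cluster 5), and 1.35, 3.22 and 2.34 CPM (cluster 6), lower at 21 dpi than before injury in none of these, unlike its sum. From uninjured to 21 dpi in the Gli1+ sort, Dlk1 went from 13.3 to 2.37 CPM (cluster 3) and from 0.981 to 0 CPM (cluster 10). It went from 1.62 to 2.01 CPM in cluster 6 and from 7.19 to 34.1 CPM in cluster 23, so the direction differed. In the Gli1- sort Meg3 had 327, 980.4 and 548 CPM (cluster 3), 755, 1163 and 825 CPM (cluster 5), and 641, 1202 and 487 CPM (cluster 6), highest at 7 dpi in each. In tenocyte cluster 10 of that sort Meg3 had 242, 219 and 270 CPM, lowest at 7 dpi. Grb10 and Peg3 were highest at 21 dpi in clusters 3 and 5, with Grb10 at 397 and 612 CPM, against 208 and 288 CPM before injury, and Peg3 at 138 and 246 CPM, against 51.3 and 42.9 CPM. Ndn in cluster 3 stood at 153, 160.1 and 121 CPM and in cluster 5 at 132, 165 and 123 CPM, not lower at 7 dpi in either. In cluster 6 Ndn stood at 132, 108 and 57.8 CPM, lower at 7 dpi by a log2 ratio of -0.30 (-0.49 to -0.10), and in tenocyte cluster 10 at 23.9, 42.1 and 29.5 CPM. From uninjured to 21 dpi in the Gli1+ sort, Ndn went from 109.7 to 113 CPM (cluster 3), 103 to 114 CPM (cluster 23) and 31.6 to 27.9 CPM (cluster 10). It was far lower only in cluster 6, from 119.7 to 51.9 CPM. H19 in that sort went from 36.4 to 32.7 CPM in cluster 3. It was higher at 21 dpi in cluster 6 (4.46 to 90.1 CPM), cluster 10 (0.654 to 16.6 CPM) and cluster 23 (2.16 to 17.0 CPM). At 21 dpi H19 was highest in chondrocyte or bone cells, at 300.4 CPM in Gli1+ (300 cells) and 374 CPM in Gli1- (353 cells), where Peg3 stood at 310 and 528 CPM and Plagl1 at 149 and 225 CPM. In the same clusters Ndn was low, at 8.67 and 22.7 CPM, and Meg3 at 78.9 and 126 CPM. Such cells numbered 31 and 5 in uninjured and 23 and 9 in 7 dpi libraries, too few for a level.

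Cdkn1c, the cell cycle inhibitor, was lower after injury in endothelial and mural cells. In endothelial cells it stood at 196, 46.3 and 33.9 CPM in the Gli1+ sort, against 189, 77.6 and 32.8 CPM in the Gli1- sort, lower after injury in both sorts, with log2 ratios of -2.08 and -1.28 at 7 dpi. In mural cells it was 115, 64.1 and 77.8 CPM and 156, 59.7 and 57.7 CPM. In other mesenchymal cells, by contrast, the sums were 182, 208 and 173 CPM and 129, 203 and 131 CPM. Within Gli1- cluster 3, however, it stood at 130.2, 76.7 and 95.5 CPM and within cluster 5 at 127, 90.8 (62.1 to 128) and 150.1 CPM, lower at 7 dpi beyond counting error in cluster 3. In tenocyte cluster 10 of that sort it stood at 211, 134 and 137 CPM, also lower after injury. Within tendon stem cell cluster 6 of that sort it was higher after injury, at 47.9, 60.7 and 100.3 CPM, with log2 ratios of 0.34 (0.06 to 0.62) and 1.07, while cluster 2, which held few uninjured cells, stood at 241 CPM at 7 dpi. Mest was higher after injury in endothelial cells, at 145 CPM at 7 dpi against 27.8 CPM uninjured (Gli1+) and at 148 against 14.1 CPM (Gli1-). Different clusters held these types over time. Endothelial cells were mostly cluster 0 in uninjured tendon and cluster 13 in the Gli1+ 7 dpi library (7 of its cells were in cluster 0). Mural cells of the Gli1- sort were mostly cluster 16 before injury and cluster 9 after it. Within endothelial cluster 0 of the Gli1- sort, Cdkn1c stood at 209, 140.4 and 86.9 CPM and Mest at 14.5, 66.0 and 42.3 CPM, so the direction was kept with a smaller change at 7 dpi. Within mural cluster 9 of that sort Cdkn1c stood at 82.6, 48.7 and 55.2 CPM. Dlk1 and Meg3 were mural as well as mesenchymal: Dlk1 in mural cells stood at 24.9, 26.4 and 18.7 CPM in the Gli1+ sort, against 1.45, 68.9 and 13 CPM in the Gli1- sort. Within mural cluster 9 the Dlk1 levels were 43.5, 31.7 and 19 CPM (Gli1+) and 1.94, 81.1 and 13.2 CPM (Gli1-), so the highest library was the uninjured one in the Gli1+ sort and that of 7 dpi in the Gli1- sort. Meg3 reached 1249 and 1311 CPM in mural cells at 21 dpi. Cells named skeletal muscle from markers numbered 95 and 133 in uninjured tendon (Gli1+, Gli1-). They held high Meg3 and Peg3 there, at 1169.9 and 624 CPM in the Gli1+ sort, against 951 and 411 CPM in the Gli1- sort. With fewer components in the clustering, a cluster led by Pax7 and Calcr and left unnamed held 72 and 128 uninjured cells. The cluster then named skeletal muscle held 21 and 10. The name may therefore not hold for most of these cells, and how Meg3 and Peg3 divided among them was not tested.

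**Figure D3:**
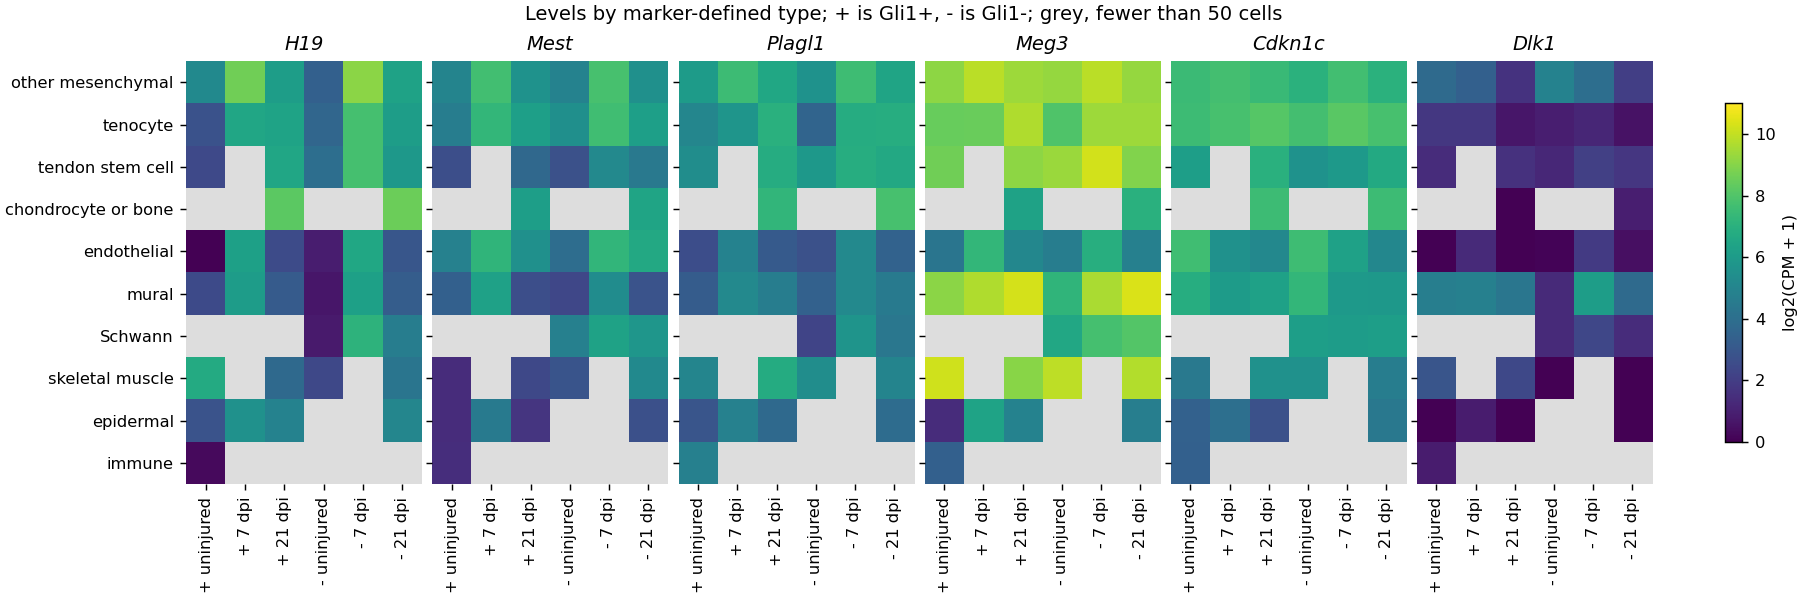
Colour gives log2(CPM + 1) of 6 members by marker-defined type (rows) and library (columns, + for Gli1+ and - for Gli1-), and grey marks fewer than 50 cells. H19 is brightest in other mesenchymal cells at 7 dpi (393 and 537 CPM) and in chondrocyte or bone cells at 21 dpi (300.4 and 374 CPM), while Cdkn1c darkens after injury in endothelial cells.

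Free RNA in droplets gives UMIs in cells that do not express a gene, so levels in other types were set beside those of the fibroblast genes Col1a1, Col1a2 and Pdgfra. In Gli1+ epidermal cells at 7 dpi the members stood at 7.30% to 19.7% of their mesenchymal level, where Col1a1, Col1a2 and Pdgfra stood at 10.6%, 8.85% and 8.75%, with H19 (12.5%), Mest (11.3%), Plagl1 (15.3%), Peg3 (13.8%), Ndn (13.7%) and Igf2 (19.7%, from 7 UMIs) above those genes and Cdkn1c (7.30%) below them. In Gli1+ endothelial cells at 7 dpi H19 stood at 20.2%, Meg3 at 17.2%, Plagl1 at 15.7% and Dlk1 at 17.1% of the mesenchymal level, beside 20%, 18.8% and 17.1% for those fibroblast genes, near or below them. Mest, Grb10 and Peg3 stood above it in endothelial cells, at 72.4%, 56.9% and 41.1% in the Gli1+ sort, against 68.6%, 58.9% and 55.0% in the Gli1- sort. H19 in Gli1+ mural cells stood at 17.7%, where Col1a1, Col1a2 and Pdgfra were at 24.9%, 22.4% and 17.3%, and in Gli1- mural cells at 14.7%, where they were at 21.5%, 19% and 11.1%, within their range in both. In Gli1- endothelial cells H19 stood at 18.0%, above the 15.7%, 12.9% and 13.1% of those genes. In Gli1- Schwann cells H19 stood at 26.4% (137 CPM, 111 to 166), beside 22.6%, 24.9% and 23.3%. At 7 dpi H19 in Gli1- mesenchymal clusters 3, 5 and 10 (127, 122 and 62.3 CPM) lay within or below that interval. Mest there stood at 86.3, 116 and 199 CPM, beside 79.0 CPM in Schwann and 148 CPM in endothelial cells. H19 in Gli1+ tenocytes (91.2 CPM) lay within the interval of Gli1+ endothelial cells (76.1 CPM, 56.7 to 100.1). How much of a level near these values is free RNA was not tested. Dlk1 in mural cells, by contrast, stood at 303% and 493% of its mesenchymal level.

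Shares of cells with a UMI were compared after each cell was thinned to 2000 UMIs, leaving out 12 to 141 shallower Pdgfra cells per library. An H19 UMI was then found in 1.17% (0.726 to 1.78), 32.8% (31.5 to 34.2) and 7.91% of Gli1+ and in 0.830%, 39.1% and 9.56% of Gli1- Pdgfra cells of uninjured, 7 dpi and 21 dpi tendon. Without thinning the shares were 2.55%, 61.8% and 16.6%, and 1.73%, 69.7% and 19.6%. The thinned share of Gli1+ epidermal cells at 7 dpi with an H19 UMI, 9.64% (8.31 to 11.1), serves as a background for that library, at median depths of 8891 UMIs against 10362 in Pdgfra cells. In endothelial cells at 7 dpi the thinned H19 share was 19.6% (12.6 to 28.4) in the Gli1+ library, against 13% (10.4 to 15.9) in the Gli1- library, which had too few epidermal cells. A Mest UMI was found in 3.79%, 20.8% and 6.14% of Gli1+ and in 3.67%, 22.2% and 6.97% of Gli1- Pdgfra cells, beside 3.45% of Gli1+ epidermal cells and 16.8% and 15.6% of endothelial cells at 7 dpi. H19 shares of Pdgfra cells at 7 dpi were thus above those of endothelial cells in both libraries and of epidermal cells in the Gli1+ library, whereas the Mest share of Gli1+ Pdgfra cells lay within the endothelial interval (10.3 to 25.3). At 21 dpi the H19 share was 2.46% in epidermal and 2.34% in endothelial cells of the Gli1+ library, and 6.85% (2.26 to 15.3) and 1.80% in those of the Gli1- library, where the epidermal interval holds the 9.56% of Pdgfra cells.

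Members were found more often in the same cell than their separate shares would give, for some pairs. The mean number of members detected per thinned Pdgfra cell was 1.32, 2.33 and 1.60 in the Gli1+ sort, against 1.47, 2.49 and 1.58 in the Gli1- sort, and at least 4 of the 10 were found in 3.12%, 21.2% and 7.11% and in 3.87%, 23.4% and 6.51% of cells. At 7 dpi, H19 and Mest were found together in 462 of 4655 Gli1+ cells (9.92%, against 6.84% if independent) and in 788 of 6457 Gli1- cells (12.2% against 8.68%), odds ratios of 2.23 and 2.31. H19 and Cdkn1c had odds ratios of 2.41 and 2.38, H19 and Plagl1 of 1.85 and 2.28, and H19 and Dlk1 of 3.48 and 2.62. The neighbours Dlk1 and Meg3 reached 5.71 and 3.58, whereas H19 and Meg3, both abundant, were near independence at 1.14 and 1.21. Most pairs with Ndn lay near independence, with odds ratios of 0.796 and 0.874 with Plagl1, 0.993 and 0.783 with H19, 1.21 and 0.810 with Cdkn1c and 1.27 and 1.23 with Meg3, and were furthest above it among pairs with each gene in at least 50 cells with Dlk1 (1.31 and 1.49), and within clusters 0.928 and 0.990 with H19. Ndn and Igf2 had odds ratios of 3.23 and 0.549, from 4 and 3 cells with both. Odds ratios this close to 1 moved with the random draw: of 36 pairs with each gene in at least 50 cells, 31 were above 1 in each sort, and 36 (Gli1+) and 31 (Gli1-) in another draw, in which 49.2% and 49.6% of all gene pairs so detected were.

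**Figure D4:**
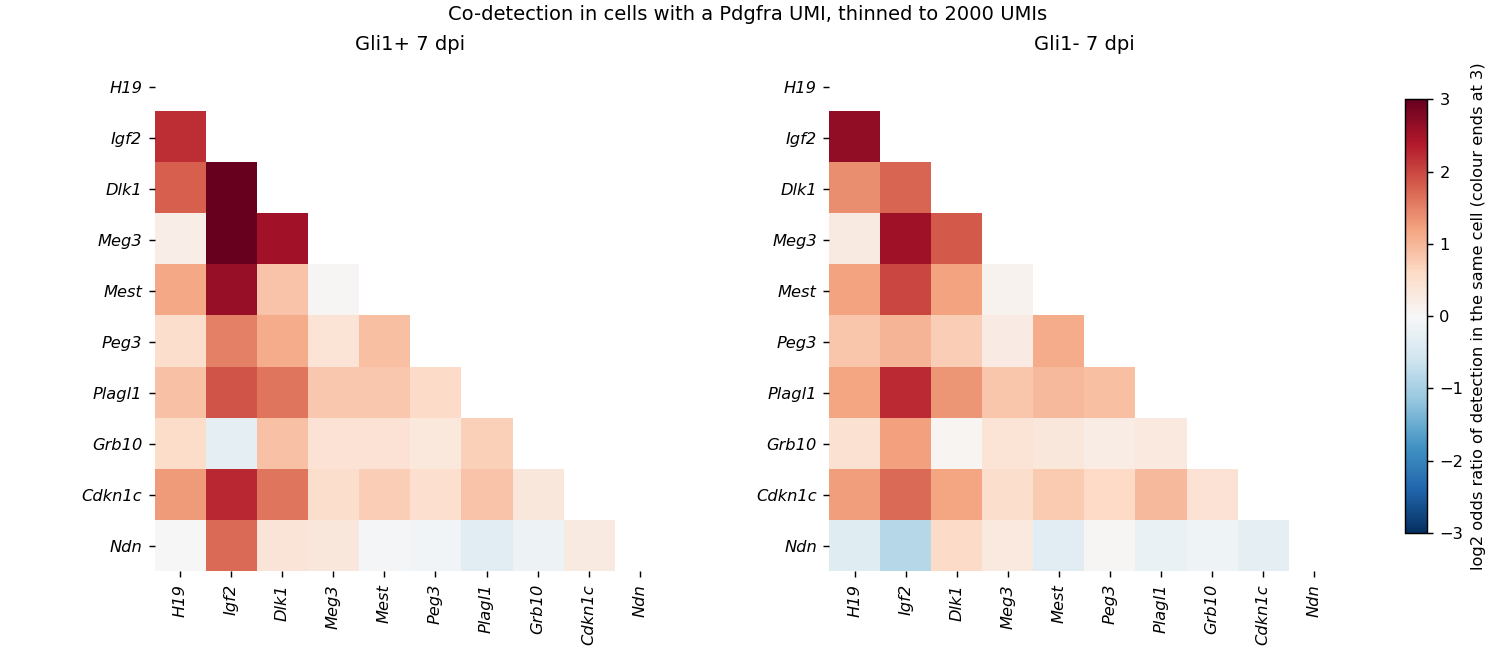
Colour gives the log2 odds ratio of finding both genes of a pair in the same Pdgfra cell at 7 dpi, after thinning to 2000 UMIs, in the Gli1+ (left) and Gli1- (right) library, with red above independence. Dlk1 pairs are among the reddest of those with each gene in at least 50 cells (Dlk1 with Meg3, 5.71 and 3.58), the Igf2 column rests on 13 and 30 cells, and the Ndn row is pale or blue for most pairs.

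Of 45 pairs at 7 dpi, 15 (Gli1+) and 17 (Gli1-) had an odds ratio of at least 2. Most of them held Igf2 or Dlk1, the rarest members, and Igf2 was detected in just 13 and 30 thinned cells. Among pairs without Igf2 or Dlk1, 2 of 28 (Gli1+) and 4 of 28 (Gli1-) reached 2. Of 36 pairs with each gene in at least 50 cells, 7 (Gli1+) and 9 (Gli1-) did, beside 2.93% of all pairs of 10487 genes so detected in the Gli1+ library and 2.95% of those of 11045 genes in the Gli1- library. Taken within clusters, which share cell type and part of their depth, 15 and 13 pairs reached 2, and H19 with Mest stood at 2.06 and 2.0. The members were chosen with earlier values of these libraries known, so nothing is read from the gap to all gene pairs. Cells are not replicates, so the odds ratios describe these libraries.

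**Figure D5:**
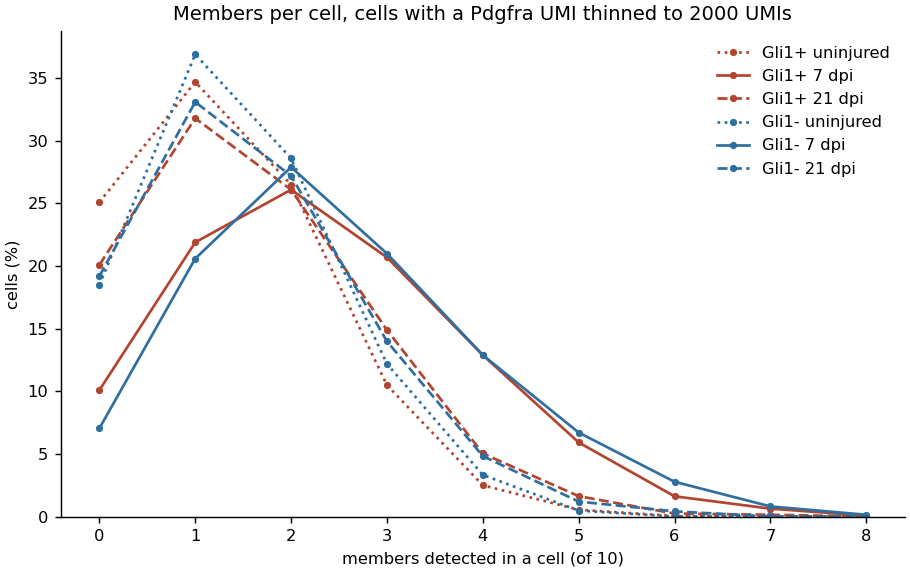
Lines give the percentage of thinned Pdgfra cells (y axis) in which a given number of the 10 members was detected (x axis), for each of the 6 libraries. The 7 dpi lines lie to the right, with means of 2.33 and 2.49 members per cell against 1.32 to 1.60 in the other libraries.

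Cells with UMIs of proliferation genes carried less of some members. At 7 dpi, Gli1+ Pdgfra cells with a UMI of Mki67 or Top2a (1253 cells) were compared with those without (3466 cells). The log2 ratio of the former over the latter was -0.81 (Gli1+) and -0.59 (Gli1-) for Cdkn1c, -0.35 and -0.29 for H19, and -0.18 and -0.07 for Mest. Peg3 was nearly level, at -0.03 (-0.12 to 0.06) in Gli1+ cells. Cells with such UMIs were also deeper, with medians of 13575 against 9481.5 UMIs in the Gli1+ library, and the part of free Mki67 or Top2a RNA among them was not tested. In the cluster led by cell cycle genes, cluster 15, Cdkn1c stood at 73.1 and 73.7 CPM at 7 dpi, against 237 CPM in cluster 1 (Gli1+) and 241 CPM in cluster 2 (Gli1-). Such a level was not particular to cluster 15. At 7 dpi Cdkn1c stood at 60.0 CPM in Gli1+ cluster 25 and at 60.7 and 76.7 CPM in Gli1- clusters 6 and 3. The remaining mesenchymal clusters with at least 50 cells ran from 105 to 229.8 CPM (Gli1+) and from 90.8 to 466 CPM (Gli1-).

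The other genes of imprinted loci did not share one direction. Of 42 other imprinted genes listed, 40 were in the files, and in Pdgfra cells at 7 dpi 7 were at least 2-fold higher and 8 at least 2-fold lower than uninjured in Gli1+ cells (of 34 past the minimum) and 6 higher and 5 lower in Gli1- cells (of 33), beside 13.4% and 14.0% of all genes higher and 19.8% and 15.3% lower. Their median log2 ratio was -0.18 and -0.15, close to that of all genes, -0.17 and -0.08. In all kept cells 10 of 37 were higher and 4 lower in the Gli1+ sort, and 7 of 34 higher and 4 lower in the Gli1- sort, where 14.1% and 12.1% of all genes were higher and 26.0% and 20.1% lower. In those cells Rian and Mirg, noncoding RNAs of the Dlk1 and Meg3 locus, were higher at 7 dpi by 2.0 and 1.01 and by 2.30 and 2.05 on the log2 scale, and Peg12 by 2.27 and 1.17. Peg13 (-1.49 and -2.0), Asb4 (-1.02 and -1.79) and the calcitonin receptor gene Calcr (-4.23 and -2.16) were lower. In Pdgfra cells Mirg and Peg12 were at least 2-fold higher in both sorts, and Rian in the Gli1+ sort only. Among 18 genes around IGF2 signaling, 4 were at least 2-fold higher in Pdgfra cells of both sorts at 7 dpi, Igf1, Igfbp2, Igfbp4 and Hmga2, and 4 of 16 (Gli1+) and 6 of 16 (Gli1-) were lower, beside the same shares of all genes. The median log2 ratio of this list was -0.23 and -0.58, below that of all genes (-0.17 and -0.08). Lower in both sorts were the insulin receptor gene Insr (-1.17 and -1.34) and the IGF-binding protein genes Igfbp3 (-1.53 and -1.95) and Igfbp6 (-1.98 and -1.27), which were picked out after their values were seen. Igf1, the other IGF ligand, was higher in all kept cells by 2.46 and 2.0, Igfbp4 by 2.53 and 1.66, Igfbp2 by 2.17 and 4.72, and Hmga2, whose protein promotes Igf2 transcription, by 2.59 and 4.47.

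Profiles over 47 mesenchymal cluster and library combinations, which share libraries and depth, were used to name the genes most alike among 6910. By Pearson's r on log2(CPM + 10), Ppib (0.87), Colgalt1 (0.86), P4hb (0.85), P3h1 (0.84) and Yif1a (0.84) were the 5 most like H19. Those most like Mest were Sec11a (0.77), Arfgap1 (0.77), Cnpy2 (0.76), Mlec (0.76) and Rcn1 (0.75). For Dlk1, Lrrtm3 (0.80), Adra1a (0.75), Fetub (0.75), Tnik (0.73) and Nmnat3 (0.71) came first, and for Igf2 Zfpl1 (0.61), Taf12 (0.59), Atxn10 (0.58), Mest (0.57) and Bace1 (0.56), both genes lying mostly under the added 10 CPM. Among the members, H19 stood at 0.74 with Plagl1 and 0.63 with Mest but at -0.07 with Dlk1.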

How the data were processed

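Single-cell RNA-seq was measured in 6 libraries, Gli1+ and Gli1- cells of uninjured, 7 dpi and 21 dpi tendon. The deposited values are counts, UMIs per gene and cell barcode, which the authors made with Cell Ranger (3.1.0 per the labels, 9.0.0 in the matrix header) on mm10, without normalization. No barcode held under 500 UMIs. From these counts, cells were kept if they had 200 or more genes, 1000 or more UMIs, log10 genes divided by log10 UMIs of 0.7 or more, and mitochondrial and hemoglobin shares of 5% or less, and the highest-scoring simulated-doublet neighbours were removed at 0.8% per 1000 cells. Counts per cell were scaled to 10000 and clustered (2000 variable genes, 30 components, 20 neighbors, Leiden resolution 0.5; Python 3.11.15, scikit-learn 1.9.0, leidenalg 0.10.2), and clusters were named from fixed marker lists. UMIs were summed per library or type and given as CPM with exact Poisson intervals, and ratios with exact binomial intervals at 95% (scipy 1.17.1). No test between conditions was made, since each condition is 1 library. TMM factors from edgeR 4.0.16 served as another scaling. A gene was compared where both libraries together held at least 50 UMIs, and a level by type needed 50 cells. Named were the 10 members, other listed genes at least 2-fold changed the same way in both sorts at 7 dpi (the 10 most abundant), and the 5 genes most alike in profile to H19, Mest, Dlk1 and Igf2. The members and lists were chosen with earlier results of these data known. Of 33696 feature IDs, 31961 were in GENCODE vM21, which gave the coordinates, and the annotation release used for counting is not given in the sources used here. Calculations were tested on simulated data.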

Additional observations from a re-analysis of the deposited data

Results flagged for a closer look

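A few members lay above uninjured tendon in 1 sort and below it in the other, which drew attention to them, but each sort has 1 library per time point and the difference was not tested. Ndn in all kept cells had log2 ratios over uninjured of 0.41 in Gli1+ and -0.40 in Gli1- cells at 7 dpi, and of 0.19 and -1.12 at 21 dpi. In Pdgfra cells Ndn was lower in both sorts, and the uninjured Gli1+ library held 54.5% immune cells, with Ndn at 2.50 CPM in them. Meg3 in Pdgfra cells at 21 dpi had log2 ratios of 0.57 in Gli1+ and -0.06 in Gli1- cells. Peg3 in Pdgfra cells at 21 dpi had log2 ratios of -0.12 in Gli1+ and 0.93 in Gli1- cells, beside uninjured levels of 78.0 and 42.3 CPM, and the Gli1+ value was 0.33 with TMM scaling.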

How the results depend on the processing

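Counts of members at least 2-fold above or below another library were recomputed with other cells, filters, scalings and thresholds. The count of 8 higher in Gli1+ cells at 7 dpi became 5 in Pdgfra cells, in mesenchymal cells, in mesenchymal cells without the cycling cluster and at 3-fold, and 4 in male Pdgfra cells. The count of 7 at 21 dpi became 4 in Pdgfra cells, in mesenchymal cells and in mesenchymal cells without the cycling cluster, 2 in female Pdgfra cells and 3 at 3-fold, and these counts take all 10 members, Igf2 below the UMI minimum included. In Gli1- cells at 21 dpi the count of 4 became 1 in Pdgfra cells and at 3-fold. The 1 member apart between the sorts at 7 dpi became 0 with doublets kept, in Pdgfra, mesenchymal, male and male Pdgfra cells, without the cycling cluster and at 3-fold, and 4 at 1.5-fold. Pairs with an odds ratio of at least 2 went from 15 to 33 without thinning, 9 with doublets kept and 24 at an odds ratio of 1.5 in Gli1+, and from 17 to 31 without thinning and 11 at 1000 UMIs in Gli1- cells. A second random draw gave 12 and 16, and another draw, over pairs with each gene in at least 50 cells, again gave 7 and 9. Of members highest in the mesenchymal class in Gli1+ cells at 21 dpi, 5 became 3 with 20 components. The cause was not tested. The other 81 recomputed counts were within 1.5 times the value reported. Of recomputed values of single members and shares of genes, 396 moved beyond their counting interval or, for shares, with the threshold, and 180 did not, and no ratio past 2-fold changed sign. The male, female, cycling and second-draw settings were chosen after seeing the data, and cells of 1 sex were compared only where both libraries held at least 50 of them. No condition has replicates. Both sorts of a time point came from the same pool of mice, and no paired test over the time points was made. An additive fit of sort and time point, with their interaction as the error, was also not made. Depth limits Igf2 most, with 3 UMIs in Gli1+ uninjured Pdgfra cells.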
